A study of Homo sapiens with 12 samples.

Results

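The genes that bring glucose into the cell and hold it there were examined in Huh7 cells, an established human hepatocellular carcinoma line, treated with Molidustat or with DMSO. They are 7 genes, chosen by name among the 60666 genes listed: the glucose transporters SLC2A1, SLC2A2 and SLC2A3, the hexokinases HK1, HK2 and HKDC1, and the isomerase GPI. The rule used names and no measured value, although the genes were picked with earlier results of these data known. Cells were exposed to 25 µM Molidustat or to the solvent alone for 24 h or 48 h, which gave 4 groups (DMSO 24 h, Molidustat 24 h, DMSO 48 h and Molidustat 48 h) of 3 libraries each, 12 in all. Each group is the same unmodified line, grown in medium with 25 mM glucose, so all values were taken under abundant glucose and in the presence of oxygen. The paper describes 3 biological replicates per condition, whereas the deposited design mentions triplicate extractions. The p-values below judge group differences against the spread between these libraries, which may be partly technical.

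Glucose crosses the plasma membrane through facilitative carriers of the SLC2A (GLUT) family and is phosphorylated by a hexokinase to glucose 6-phosphate, which the carriers do not transport back. GPI then converts glucose 6-phosphate to fructose 6-phosphate, the next intermediate of glycolysis. Normal hepatocytes rely on the carrier encoded by SLC2A2, whereas many hepatocellular carcinomas use SLC2A1 and HK2. Molidustat blocks the oxygen-dependent prolyl hydroxylases, so that HIF-1α and HIF-2α are no longer degraded, and SLC2A1, HK2 and GPI are textbook targets of these factors. The comparison of Molidustat with DMSO asks how the transcripts of these genes changed after the hydroxylases were blocked, at 24 h and at 48 h.

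The libraries were read from the 3′ end of polyadenylated RNA and counted per gene. The DMSO 24 h libraries held 4033489, 2462623 and 4744982 gene counts (replicates 1 to 3) and the Molidustat 24 h libraries 2703897, 8202125 and 5101950. At 48 h the totals were 6856097, 1499273 and 9179389 with DMSO and 4249851, 2312396 and 5122636 with Molidustat. The smallest library, DMSO 48 h replicate 2, stood apart from the others. In it, 50.4% of listed reads fell on no annotated gene, against at most 25.6% elsewhere, and its log2 levels correlated across genes at no more than 0.782 with any other library. It was kept, and results on the 7 genes that rest on it are given with and without it. Levels are given as CPM, in which the library totals are first scaled by edgeR's TMM factors and then set to a common total, and 3 counts in a library corresponded to 0.310 to 3.19 CPM on this scale. A call required an adjusted p-value under 0.05 in edgeR's quasi-likelihood test together with a log2 fold change beyond 1 in either direction.

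The cells carried the transcripts of their labelled origin. All 10 hepatocyte markers examined had counts in each of the 12 libraries, with AFP the most abundant at 3908 to 10323 CPM. Their summed level was 14458, 15464 and 19422 CPM in the DMSO 24 h libraries and 20941, 19900 and 27265 CPM in the Molidustat 24 h libraries. At 48 h it was 18796, 9404 and 19293 CPM with DMSO and 28089, 30046 and 31300 CPM with Molidustat. The summed level was thus higher in the Molidustat libraries at each time point, and the part of this in the results below was not tested. Of the 10 markers, SERPINA1 and TF were called higher over both time points by edgeR and 8 had a log2 fold change above 0. The others were APOB (-0.20 ± 0.23, adjusted p = 0.801) and HNF4A (-1.06 ± 0.57, adjusted p = 0.511), or -0.30 and -0.14 without DMSO 48 h replicate 2. Of 10 markers of other cells, 2 to 4 had a count in any one library, their summed level was 1.84 to 15.4 CPM, and CD3E, VWF, ACTA2, KRT5 and KRT14 were at 0 in all 12. PTPRC had 3 and 4 counts in 2 libraries and COL1A1 1 to 7 counts in 3. The most abundant of them was CD68, COL1A2 or PECAM1, at no more than 6.81 CPM. COL1A2, a collagen gene of stroma, did not overlap between the groups of a time point, at 0.207 to 0.689 CPM with DMSO and 1.58 to 2.88 CPM with Molidustat at 24 h, and 1.63 to 3.41 and 3.86 to 6.07 CPM at 48 h. Molidustat libraries were all above DMSO libraries in 7.26% of the genes tested at 24 h, 9.96% at 48 h and 2.2% at both. COL1A2 was not called (log2 fold change 1.68 ± 0.65 over both time points, adjusted p = 0.349 by edgeR, on 1 to 33 counts per library), and its part in the results below was not tested.

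Of the 7 genes, 3 had enough counts to be tested, SLC2A1, HK2 and GPI, among 14274 genes tested in all. The 4 others had few or no counts. SLC2A2, the carrier of normal hepatocytes, had 26 counts in total, 17 in Molidustat 48 h replicate 2 and 9 in Molidustat 48 h replicate 3. It was at 0 in the 10 other libraries, including all 6 DMSO libraries. SLC2A3, a high-affinity carrier typical of neurons, had 7 counts in DMSO 24 h replicate 2 and 2 in Molidustat 24 h replicate 2. Its count is uncertain, because the near-identical paralog SLC2A14 and the processed copy SLC2A3P1 (49 and 20 counts) could take or give reads. HK1, the hexokinase most widely expressed across tissues, had 30 counts in Molidustat 24 h replicate 2, 5 in Molidustat 48 h replicate 2 and none elsewhere. HKDC1, a gene next to HK1 that encodes a further hexokinase, was at 0 in all 12 libraries, where 3 counts over the 56468708 gene counts would be a level of 0.0531 CPM without TMM scaling. These 4 genes were left out of the test by the filter on low counts. Without the filter edgeR called none of them, with adjusted p-values of 0.106 for HK1 over both time points and 0.149 for SLC2A2 at 48 h, and HK1, which passed the filter when DMSO 48 h replicate 2 was left out, then had an adjusted p of 0.337.

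Per kilobase of the main transcript and summed over the 12 libraries, SLC2A1 had 817 counts, SLC2A2 had 8.17 and SLC2A3 had 2.35. Among the hexokinases HK2 had 235 counts per kilobase against 9.72 for HK1 and 0 for HKDC1. GPI, the isomerase, had 20226. Among the chosen genes, uptake was thus represented mainly by SLC2A1 and phosphorylation by HK2. Reads of a 3′ protocol come from the transcript end, so division by length can understate long transcripts such as that of HK2.

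Other genes of the same 2 steps were also present. Of the 13 other glucose and hexose carriers, 7 were tested, and the most abundant per kilobase was SLC2A8 (2826 counts), an intracellular carrier, above SLC2A1. SLC2A6, a carrier of the lysosome, had 558 counts per kilobase and SLC2A4, the insulin-responsive carrier of muscle and fat, had 226. Of the other glucose kinases, ADPGK, which phosphorylates glucose with ADP in place of ATP, had 705 counts per kilobase. HK3, a further hexokinase, had 0.

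SLC2A1 encodes GLUT1, the carrier of basal glucose uptake. The gene (ENSG00000117394) lies on the minus strand at chr1:42925353-42958893 (GRCh38). Its level was 23.2, 15.02 and 15.5 CPM in the 3 DMSO 24 h libraries and 69.9, 86.5 and 56.3 CPM in the 3 Molidustat 24 h libraries. At 48 h it was 21.6, 18.1 and 27.1 CPM with DMSO and 91.9, 45.5 and 74.4 CPM with Molidustat. Every Molidustat library was above every DMSO library, with no overlap, as in 1.43% of the genes tested. The group means were 17.9 ± 4.59 and 70.9 ± 15.1 CPM at 24 h and 22.2 ± 4.53 and 70.6 ± 23.4 CPM at 48 h (SD, n = 3).

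**Figure D1:**
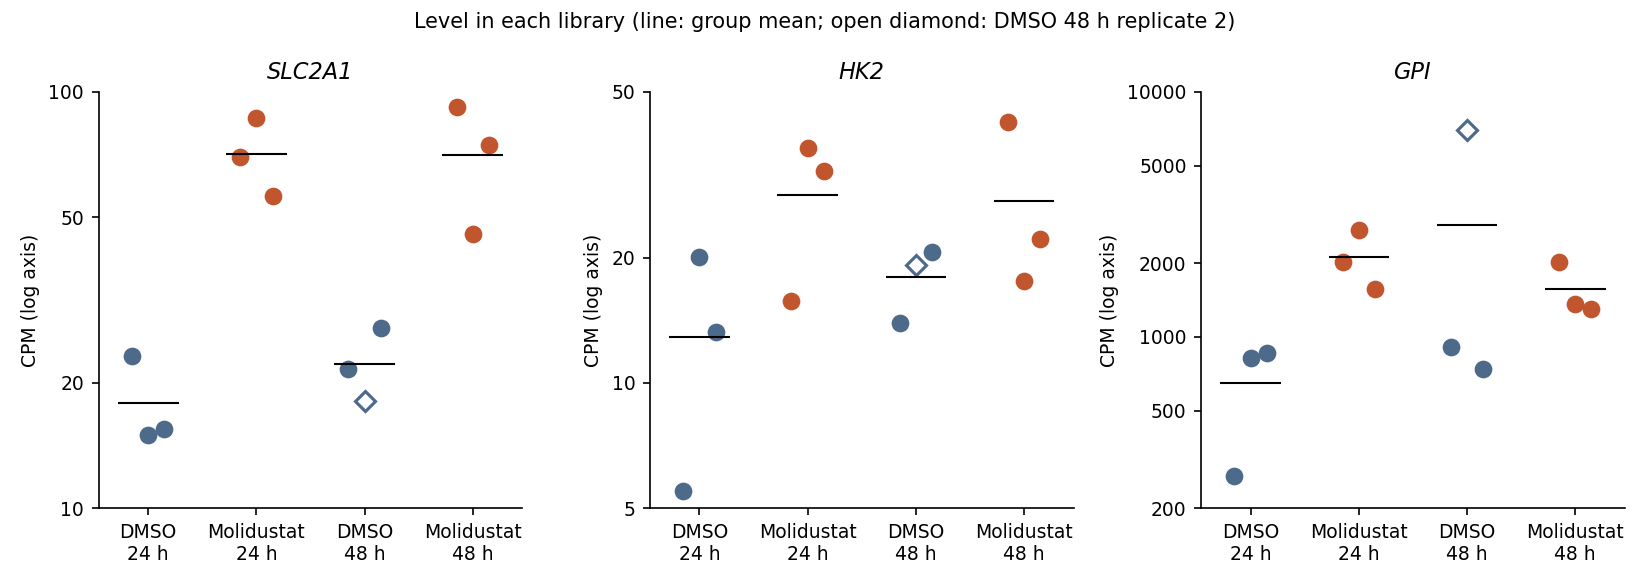
CPM on a log axis in each of the 12 libraries for SLC2A1, HK2 and GPI, by group (blue, DMSO; orange, Molidustat), with a line at the group mean and an open diamond for DMSO 48 h replicate 2. For SLC2A1 the lowest Molidustat library, at 45.5 CPM, is above the highest DMSO library, at 27.1 CPM, while HK2 overlaps at both time points and GPI in DMSO 48 h replicate 2 is at 6981 CPM.

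SLC2A1 was higher with Molidustat by 3.95-fold at 24 h, a log2 fold change of 1.98 ± 0.36 (SE) with an adjusted p of 0.0226 by edgeR, and was called. It was 1 of the 33 genes called higher at 24 h, 0.231% of those tested. At 48 h the log2 fold change was 1.65 ± 0.35 and the adjusted p of 0.0891 missed the threshold, as did that of HK2 and GPI, while 30 genes (0.21%) were called higher. The interval of the 48 h fold change (95%) ran from 0.89 to 2.40 on the log2 scale and did not reach 0. DESeq2 on all groups gave a log2 fold change of 1.64 and an adjusted p of 0.00183 at 48 h. Over both time points together the log2 fold change was 1.81 ± 0.25, a 3.52-fold difference, with an adjusted p of 0.00121. It was 1 of 137 genes called higher in that comparison (0.96%). The exact permutation test stratified by time gave a difference of 1.79 in log2 CPM and p = 0.005 (two-sided), the smallest that its 400 arrangements can give.

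The call of SLC2A1 over both time points held in all 12 fits that left out 1 library. The 24 h call was lost in 6 of them, with adjusted p-values of 0.0570 to 0.223, when DMSO 24 h replicate 1, 2 or 3, Molidustat 24 h replicate 1 or 2, or Molidustat 48 h replicate 3 was left out. The log2 fold change at 24 h stayed between 1.81 and 2.21 in these 12 fits. Between 48 h and 24 h the response differed by -0.34 on the log2 scale (interval -1.38 to 0.71), and the test of that difference gave an adjusted p of 0.934. The last exon of SLC2A1 shares 497 of its 1889 bases with an antisense long non-coding RNA, ENSG00000288955, which has no row among the listed genes. The strand setting of the counting is not given in the sources used here, so reads from that RNA could be included.

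The hexokinase HK2 phosphorylates glucose at the outer mitochondrial membrane and is the form most often raised in tumors. The gene (ENSG00000159399) lies on the plus strand at chr2:74834127-74893359 (GRCh38). Its level was 5.51, 20.03 and 13.2 CPM in the DMSO 24 h libraries and 15.8, 36.7 and 32.3 CPM in the Molidustat 24 h libraries. At 48 h it was 13.96, 19.2 and 20.7 CPM with DMSO and 42.2, 17.6 and 22.2 CPM with Molidustat. The groups overlapped at both time points, since Molidustat 24 h replicate 1 lay below DMSO 24 h replicate 2 and Molidustat 48 h replicate 2 lay below 2 DMSO libraries of its time. These values rest on few reads, from 18 counts in DMSO 48 h replicate 2 to 302 in Molidustat 24 h replicate 2.

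HK2 was not called in any comparison. The log2 fold change was 1.15 ± 0.50 (SE, adjusted p = 0.885 by edgeR) at 24 h and 0.62 ± 0.50 (adjusted p = 0.661) at 48 h. The 48 h value was 0.16 without Molidustat 48 h replicate 1 and at most 0.83 with any other single library left out. Over both time points it was 0.89 ± 0.35, a 1.85-fold difference, with an unadjusted p of 0.0240 by edgeR and an adjusted p of 0.363. The interval of this fold change (95%) was 0.13 to 1.64, which includes the threshold of 1. The exact permutation test over both time points gave a difference of 0.85 in log2 CPM and p = 0.055. This p was 0.045 without DMSO 24 h replicate 2, 0.03 without Molidustat 48 h replicate 2 and 0.03 to 0.125 over all 12 libraries left out in turn. The response at 48 h differed from that at 24 h by -0.53 (interval -2.03 to 0.97, adjusted p = 0.923).

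GPI interconverts glucose 6-phosphate and fructose 6-phosphate. The gene (ENSG00000105220) lies on the plus strand at chr19:34359480-34402413 (GRCh38) and had the most counts of the 7, between 1182 and 22597 per library. Its level was 271, 817 and 857 CPM in the DMSO 24 h libraries and 2032, 2743 and 1569 CPM in the Molidustat 24 h libraries. At 48 h it was 910, 6981 and 738 CPM with DMSO and 2028, 1362 and 1303 CPM with Molidustat. At 24 h the groups did not overlap, with Molidustat above DMSO as in 7.26% of the genes tested. At 48 h a single DMSO library, replicate 2, lay above every other library of the series, at 2.55 times the next highest and 8.47 times the mean of its own group's other replicates. Of the 12, it was the highest in 24.53% of the genes tested and exceeded the next by GPI's margin or more in 7.48% of them. These ratios and shares are on the TMM scale. The TMM factor of this library was 0.629, against 1.009 to 1.083 in the others, which raises its CPM relative to theirs. With total gene counts in place of TMM, the 48 h log2 fold change of GPI was -0.34 (adjusted p = 0.921 by edgeR), against -0.88 with TMM.

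With all 12 libraries GPI was not called between treatments by edgeR with the filter on low counts or by DESeq2. Limma-voom with quality weights called it over both time points (1.28, adjusted p = 0.0202), with 0.67 at 48 h, and edgeR without the filter called it at 24 h (1.73, adjusted p = 0.0223). With the filter, its log2 fold change was 1.71 ± 0.70 (SE, adjusted p = 0.872 by edgeR) at 24 h and -0.88 ± 0.68 (adjusted p = 0.650) at 48 h. Without DMSO 48 h replicate 2, which enters the spread shared across groups, the 24 h log2 fold change was 1.72 ± 0.35 and was called with an adjusted p of 0.0207. The 48 h value turned to 0.91 ± 0.39 (adjusted p = 0.664), with Molidustat libraries at 1303 to 2028 CPM above the remaining DMSO libraries at 738 and 910 CPM. The same libraries were apart in this direction in 13.73% of the genes tested. Over both time points the log2 fold change went from 0.41 ± 0.48 (adjusted p = 0.805) to 1.32 ± 0.26 (adjusted p = 0.0103), a 2.49-fold difference. The exact permutation test changed likewise, from a difference of 0.86 with p = 0.245 to 1.37 with p = 0.005, the smallest that 200 arrangements can give. The high level in that library came with 50.4% of reads on no annotated gene and the lowest depth of the 12, and the part of either in it was not tested. The last exon of GPI shares 349 of its 2513 bases with ENSG00000266953, a gene on the same strand with 73 counts, and reads there could not be told apart.

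**Figure D2:**
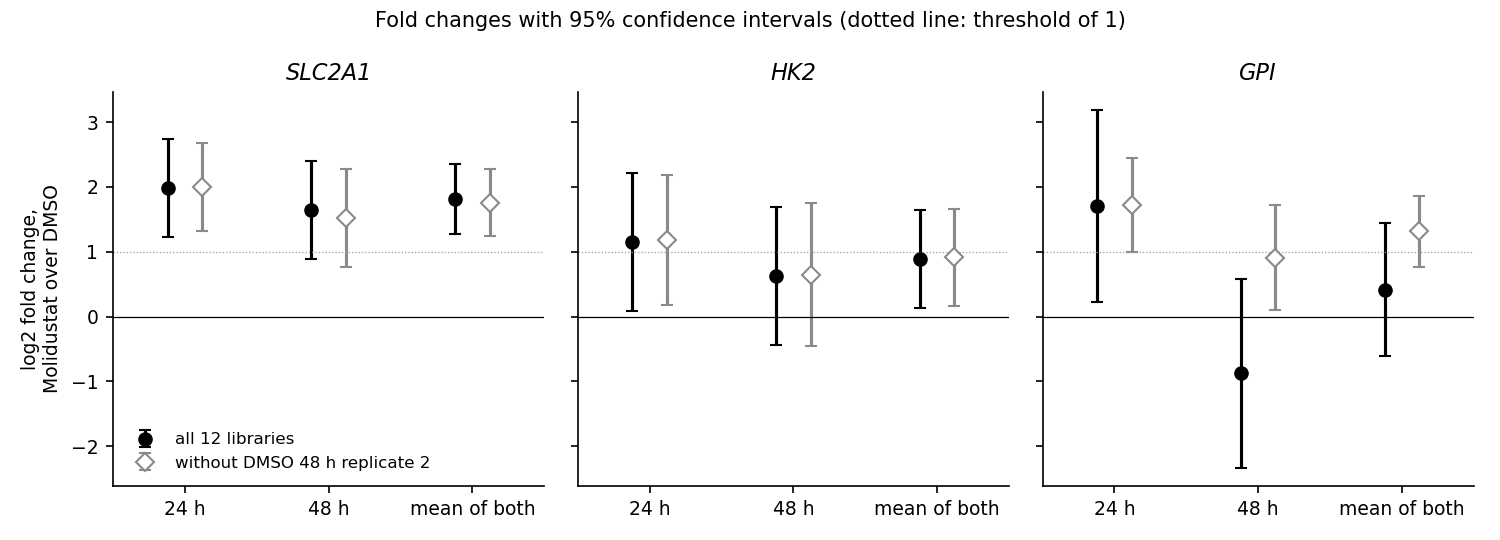
Log2 fold change of Molidustat over DMSO at 24 h, at 48 h and as their mean for SLC2A1, HK2 and GPI, with 95% confidence intervals, from all 12 libraries (filled circles) and without DMSO 48 h replicate 2 (open diamonds). The solid line marks 0 and the dotted line the threshold of 1; only the 48 h value of GPI changes sign, from -0.88 to 0.91.

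Of the 3 tested members, 1 was called higher at 24 h, 0 at 48 h (by edgeR, with SLC2A1 higher at an unadjusted p of 0.000294, and 1 by DESeq2) and 1 over both time points, beside 0.231%, 0.21% and 0.96% of all genes. No member was called lower. Over all genes 0% were called lower at 24 h (0 genes by edgeR, with 217 lower at an unadjusted p under 0.05, and 12 by DESeq2), 0.021% at 48 h and 0.0701% over both. The 48 h share is 3 genes, against 176 by DESeq2, 610 by edgeR without a filter, 272 without DMSO 48 h replicate 1 and 152 without DMSO 48 h replicate 3. The median log2 fold change of the 3 tested members was 1.71 at 24 h, 0.62 at 48 h and 0.89 over both, against 0.02, 0.01 and -0.01 for all genes tested. Without DMSO 48 h replicate 2 the median of the same 3 genes was that of GPI, 1.72, 0.91 and 1.32. Libraries with Molidustat lay all above those with DMSO for SLC2A1 and GPI at 24 h (7.26% of genes), for SLC2A1 alone at 48 h (9.96%) and for SLC2A1 at both time points (2.2%). Against the 5 DMSO libraries other than DMSO 48 h replicate 2, all 6 Molidustat libraries were higher for SLC2A1 and GPI (1.94%). At 48 h alone, without that library, Molidustat libraries were all higher for SLC2A1 and GPI (13.73%).

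Time alone moved no member past the threshold. From 24 h to 48 h in DMSO, the log2 change was 0.33 for SLC2A1 and 0.48 for HK2, and for GPI it was 2.15 (unadjusted p = 0.00818 and adjusted p = 0.541 by edgeR), or 0.37 without DMSO 48 h replicate 2. Of all genes, 0.00701% were called in this comparison (1 lower by edgeR, with 965 higher and 197 lower at an unadjusted p under 0.05, 30 higher and 8 lower by DESeq2, and 387 higher and 13 lower by edgeR without a filter). In Molidustat the log2 changes from 24 h to 48 h were 0.00, -0.05 and -0.43 for SLC2A1, HK2 and GPI, and 0% of genes were called (0 by edgeR, with 341 higher and 313 lower at an unadjusted p under 0.05, and 12 by DESeq2). For GPI the response differed between the time points by -2.58 (unadjusted p = 0.0180, adjusted p = 0.728), or by -0.81 without DMSO 48 h replicate 2. No gene passed in that comparison, which is 0% (0 by edgeR, with 168 higher and 800 lower at an unadjusted p under 0.05, and 4 by DESeq2). Without a filter on low counts, edgeR called 6 genes higher and 315 lower in this difference, and called GPI both in DMSO over time and in the difference between time points, with adjusted p-values of 0.000873 and 0.00758.

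Per kilobase of the main transcript, the order of the levels was GPI, SLC2A1 and HK2 in each of the 4 groups, with no overlap between neighbors in any of them. Not divided by length, the CPM of SLC2A1 and HK2 overlapped in DMSO at both time points. In DMSO at 24 h the libraries ranged from 65.8 to 208 CPM per kilobase for GPI, from 4.44 to 6.85 for SLC2A1 and from 0.980 to 3.56 for HK2. At 48 h in DMSO the ranges were 179 to 1692, 5.35 to 8.001 and 2.48 to 3.67. With Molidustat SLC2A1 stood at 16.6 to 25.6 CPM per kilobase at 24 h and 13.4 to 27.2 at 48 h, and HK2 at 2.80 to 6.52 and 3.13 to 7.51.

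The windows before the start sites were searched for the core of the hypoxia response element, the letters ACGTG or GCGTG on either strand, in the 250 bases upstream of each RefSeq start (GRCh38.p14). Either motif was found in 43.2% of 35116 promoters, ACGTG in 18.5% and GCGTG in 32.2%. Per gene, over any of its starts, either motif was found in 47.4% of 27305 genes and ACGTG in 21.7%. Entries were found for 6 of the 7 genes. SLC2A1, SLC2A2 and HKDC1 had no match, HK1 had 1 GCGTG at 1 of its 7 starts, and GPI had 1 ACGTG. HK2 had 3 matches at its first start and 6 at its second. The stretches that hold the matches in HK2 and GPI are shown with the stretch next to the SLC2A1 start for comparison, each 5′ to 3′ on the strand of the gene with the bases of each match in capitals. A match is a description of the letters and not evidence of binding, and the SLC2A1 window shows only that these letters are absent there.
SLC2A1 (chr1:42958894-42958993, minus strand, no match): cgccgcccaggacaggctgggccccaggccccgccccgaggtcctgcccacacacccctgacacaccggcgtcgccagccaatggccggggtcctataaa
HK2, first start (chr2:74833887-74833921, plus strand): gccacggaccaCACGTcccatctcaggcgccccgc
HK2, first start (chr2:74834057-74834106, plus strand): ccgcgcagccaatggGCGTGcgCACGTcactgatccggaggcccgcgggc
HK2, second start (chr2:74834965-74835044, plus strand): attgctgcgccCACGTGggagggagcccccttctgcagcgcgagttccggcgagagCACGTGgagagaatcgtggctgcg
HK2, second start (chr2:74835058-74835109, plus strand): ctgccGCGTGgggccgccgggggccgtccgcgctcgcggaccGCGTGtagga
GPI (chr19:34364820-34364844, plus strand): actgcctgtaACGTGgaaggtgttc

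The stretch nearest the first HK2 start holds both motifs within a short stretch, one on each strand. The longer stretch before the second start holds at 2 places the palindrome CACGTG, which was counted once per strand. The GPI stretch overlaps an exon of an annotated isoform that starts farther upstream, while those of SLC2A1 and HK2 lie outside the annotated exons of their genes.

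TXNIP, an arrestin-like protein that removes GLUT1 from the plasma membrane, had a larger log2 fold change at each time point than any of the 3 tested members. Its level was 9.42, 9.24 and 7.85 CPM in the DMSO 24 h libraries and 125.1, 124.8 and 177 CPM in the Molidustat 24 h libraries. At 48 h it was 23.6, 18.1 and 24.0 CPM with DMSO and 147, 145 and 120 CPM with Molidustat. The groups were apart at each time point, with Molidustat above DMSO as in 2.2% of the genes tested. The log2 fold change was 4.01 ± 0.32 (SE, adjusted p = 2.19e-05 by edgeR) at 24 h, 2.63 ± 0.30 (adjusted p = 0.000941) at 48 h and 3.32 ± 0.22 (adjusted p = 1.38e-06) over both. Transcripts of SLC2A1 and of TXNIP were thus both higher with Molidustat. The response of TXNIP differed between 48 h and 24 h by -1.38 on the log2 scale, with an unadjusted p of 0.00385 and an adjusted p of 0.728 by edgeR. ARRDC4, a related arrestin, had counts in a single library and was not tested, and SLC2A4RG, a regulator of SLC2A4, had a log2 fold change of 0.04 over both time points.

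**Figure D3:**
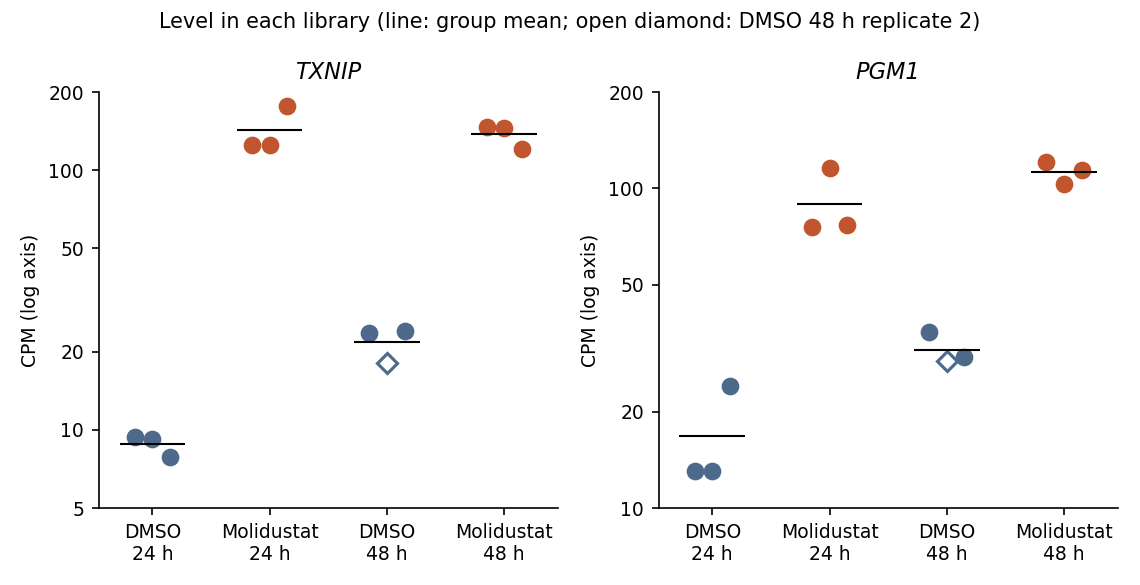
CPM on a log axis in each of the 12 libraries for TXNIP and PGM1, by group (blue, DMSO; orange, Molidustat), with a line at the group mean and an open diamond for DMSO 48 h replicate 2. In both genes all 6 Molidustat libraries, from 120 CPM for TXNIP and from 75.6 CPM for PGM1, are above all 6 DMSO libraries, as in 1.43% of the genes tested.

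None of the other carriers tested was called at either time point or over both (0 of 7 by edgeR and 0 by DESeq2, which gave no adjusted p for SLC2A14 at 48 h). By edgeR an unadjusted p under 0.05 was reached by SLC2A6 at 24 h, by SLC2A4 and SLC2A14 at 48 h and by these 3 over both. Of the 7 carriers, 5 had a positive log2 fold change over both, with a median of 0.22. Without DMSO 48 h replicate 2, 4 of these 7 were above 0 and the median, that of SLC2A11, was 0.03. SLC2A6 had a log2 fold change of 0.90 ± 0.34 (adjusted p = 0.332) and SLC2A8 one of 0.47 ± 0.36 (adjusted p = 0.665), or 0.25 ± 0.22 without DMSO 48 h replicate 2. SLC2A4 had a value of -1.39 ± 0.50 (adjusted p = 0.296), with 111 CPM in DMSO 48 h replicate 2 and at most 19.4 CPM in any other library. Without that library it was -0.60 ± 0.37 (adjusted p = 0.575) over both time points and -0.14 ± 0.54 at 48 h. Limma-voom called SLC2A14 higher at 48 h, on 0 to 15 counts per library, and edgeR without a filter called SLC2A4 lower over both time points. ADPGK, the only other glucose kinase tested, had a log2 fold change of -0.20 ± 0.29 (adjusted p = 0.858). The reverse step, hydrolysis of glucose 6-phosphate, was represented by G6PC3, the phosphatase found in all tissues (-0.05 ± 0.26), and by SLC37A4, the carrier that brings the substrate to it (-0.44 ± 0.38), and neither was called. G6PC1, the phosphatase of liver, had counts in 1 library, and G6PC2 had none.

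Among the genes that take glucose 6-phosphate elsewhere, 1 of the 4 examined was called. PGM1, which turns it into glucose 1-phosphate on the way to glycogen, was at 13.1, 13.1 and 24.2 CPM in the DMSO 24 h libraries and 75.6, 116 and 76.7 CPM in the Molidustat 24 h libraries. At 48 h it was at 35.5, 28.7 and 29.7 CPM with DMSO and 120, 102.95 and 114 CPM with Molidustat. The log2 fold change was 2.40 ± 0.34 (SE, adjusted p = 0.00298 by edgeR) at 24 h, 1.84 ± 0.33 (adjusted p = 0.0275) at 48 h and 2.12 ± 0.24 (adjusted p = 0.000131) over both. The 48 h call was lost when Molidustat 24 h replicate 1 or 3 or any of the Molidustat 48 h libraries was left out (adjusted p = 0.0501 to 0.163). The log2 fold changes of PGM2, H6PD and PGLS over both time points lay between 0.05 and 0.63, and none of these was called.

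**Figure D4:**
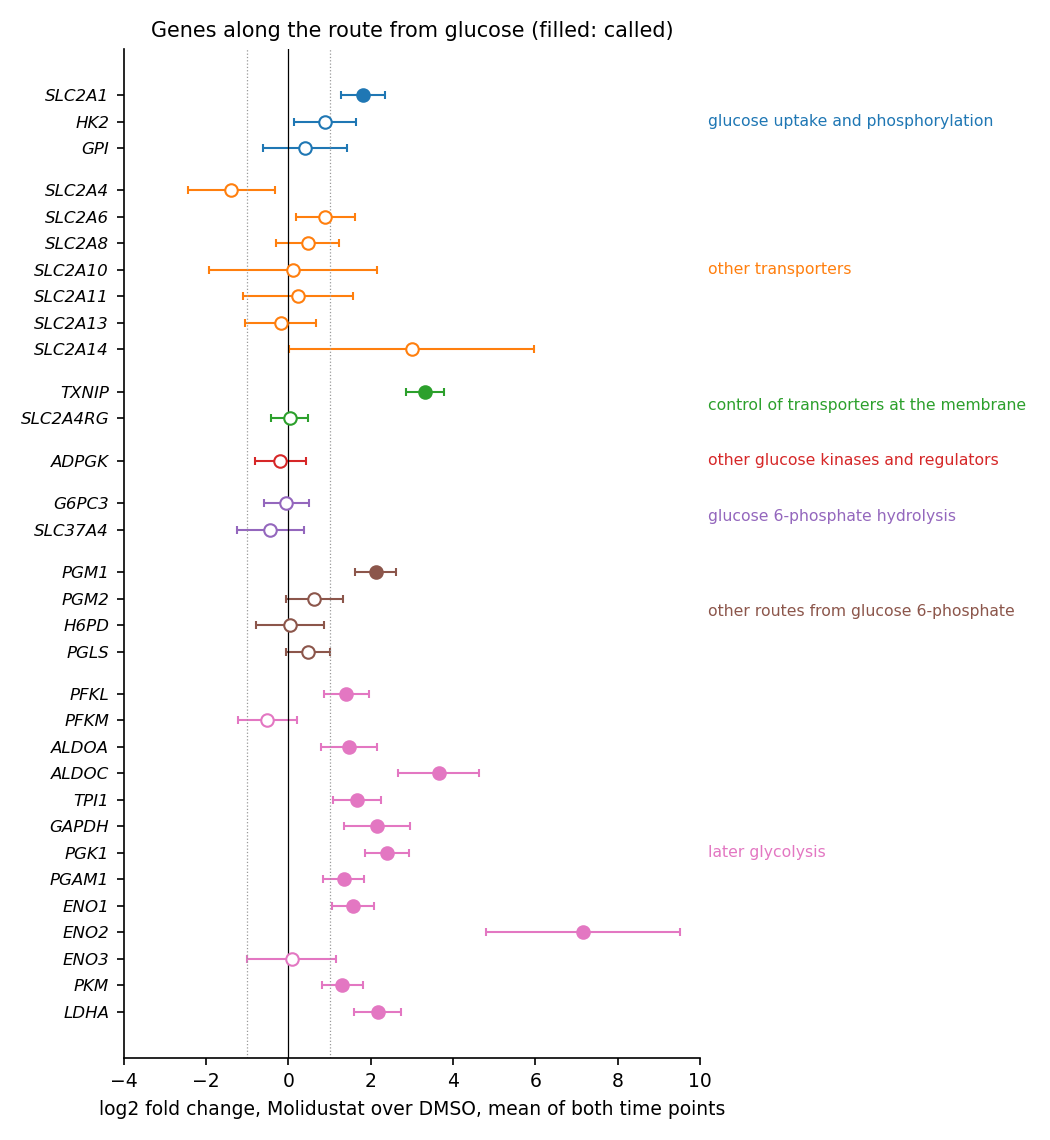
Log2 fold change of Molidustat over DMSO as the mean of both time points, with 95% confidence intervals, for the tested genes examined along the route from glucose, grouped by step; filled points were called, the solid line marks 0 and dotted lines mark -1 and 1. SLC2A1, TXNIP, PGM1 and 11 of 13 later glycolytic genes are filled, while HK2 and GPI are open.

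Downstream of GPI, the 17 later glycolytic genes gave 13 tested, of which 11 were called higher over both time points, beside 0.96% of all genes. These were PFKL, which commits fructose 6-phosphate to glycolysis, ALDOA, ALDOC, TPI1, GAPDH, PGK1, PGAM1, ENO1, ENO2, PKM and LDHA. PFKM (-0.51 ± 0.34) and ENO3 (0.08 ± 0.51) were not called. The median log2 fold change of the 13 was 1.57, beside 0.89 for the 3 tested members of the entry steps and -0.01 for all genes. Without DMSO 48 h replicate 2 these medians were 1.46 for the 13 and 1.32 for the 3. PGK1, the first ATP-forming enzyme of glycolysis, was at 72.0 to 75.2 CPM in DMSO and 353 to 710 CPM in Molidustat at 24 h, and at 87.8 to 165 and 427 to 541 CPM at 48 h. It was called at each time point, with log2 fold changes of 2.80 ± 0.36 (SE, adjusted p = 0.00112 by edgeR) and 1.99 ± 0.35 (adjusted p = 0.0235). ENO2 had no count in 5 of the 6 DMSO libraries and 1 in the sixth, against 4 to 55 counts with Molidustat, and its fitted fold change depends on the prior count.

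Of these 13 genes, 3 were called at 24 h (ALDOC, PGK1 and LDHA) and 1 at 48 h (PGK1). Without DMSO 48 h replicate 2 the counts were 11 at 24 h and 5 at 48 h, while all genes called higher went from 33 to 111 and from 30 to 48. The 48 h count was 2, 3 and 2 without DMSO 24 h replicate 1, DMSO 48 h replicate 1 and DMSO 48 h replicate 3, and 0 without any single Molidustat 48 h library.

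Across the 12 libraries, the genes whose log2 CPM most resembled SLC2A1 were SPAG4 (Pearson r = 0.966), VEGFA (0.964), the secreted angiogenic factor, and PKM (0.962), the pyruvate kinase. All share the treatment groups with SLC2A1. For HK2 they were MAST4 (0.912), DDHD2 (0.865) and TLE2 (0.845). For GPI they were RNF24 (0.972), TAPBP (0.970) and BICC1 (0.962), and in each of these the fitted response was above 0 at 24 h but below 0 at 48 h, as for GPI. Without DMSO 48 h replicate 2 their correlations with GPI were 0.952, 0.948 and 0.933, and their 48 h log2 fold changes were 0.73, 0.74 and 0.94. GPI correlated with SLC2A1 at 0.340 over 12 libraries and at 0.765 over the 11 without DMSO 48 h replicate 2, and with HK2 at 0.628 and 0.831. HK2 and SLC2A1 correlated at 0.601 and 0.634. These values describe these libraries, which differ in depth and treatment, and both genes of a pair were measured in the same libraries.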

How the data were processed

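Per the labels and the study's methods, RNA from Huh7 cells was made into 12 libraries of transcript 3′ ends with the QIAseq UPX 3′ kit and sequenced. The submitters' processing notes name bcl2fastq 2.17.1.14, cutadapt 1.9.1, STAR 2.7.9a, HTSeq 0.11.2, DESeq2 1.26.0 and the build GRCh38. The deposited values are whole-number counts of reads per gene, made by the authors with HTSeq without normalization. The annotation release, strand setting and use of molecular identifiers are not given in the sources used here, so limits set by 3 counts cover counting error only, while the intervals of fold changes rest on the spread between libraries. Names and coordinates came from GENCODE release 44, which named 60437 of 60666 listed genes, and start-site windows from RefSeq. Summary lines naming no gene were left out; reads on no annotated gene made up 17.1 to 50.4% of listed reads.

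The analysis used edgeR 4.0.16 under R 4.3.3 (filterByExpr, minimum count 10 and total 15, which kept 14274 of 28430 genes with a count; TMM factors; a single quasi-likelihood fit of the 4 groups). P-values were adjusted over all genes tested by the Benjamini-Hochberg method. Single genes were compared by an exact permutation test of log2 CPM (prior count 2), two-sided, stratified by time. Alternatives were DESeq2 1.42.0, limma-voom (limma 3.58.1) with sample quality weights, other scalings, filters and thresholds, each time point alone, a replicate block and each library left out. DESeq2 without DMSO 48 h replicate 2 was added after the data were seen. Replicates of a group differed by more than sampling noise (chi-square per degree of freedom at least 10.3 over 12 pairs). The scripts were tested on simulated data. The genes and lists were chosen with earlier results of these data known. The text names the 7 genes, list genes past the threshold in a treatment comparison, and for each tested gene the 3 genes with the highest correlation. Some genes of the lists are not reported here. Other list genes were named to describe their lists, after their values were seen. Figures were drawn with matplotlib 3.10.9.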

Additional observations from a re-analysis of the deposited data

How the results depend on the processing

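SLC2A1 was called over both time points under all 20 alternatives (log2 fold change 1.69 to 1.92). Its exact permutation difference ran from 1.68 to 1.93 in 13 settings, with p at the smallest possible, 0.005, which says nothing about stability. With total gene counts in place of TMM, its 24 h call was lost (1.93, adjusted p = 0.0889 by edgeR), leaving 0 members called, and the exact p of HK2 became 0.04 (difference 0.93). That scaling moved the median log2 fold change of all genes at 48 h from 0.01 to 0.13. At 48 h SLC2A1 passed, as the 1 member called higher, with DESeq2 (1.64, 1 of 172 genes called higher) and limma-voom with quality weights (1.52, 1 of 244). It also passed as the 1 member with no filter on low counts (1.64, 1 of 154) and with DESeq2 without DMSO 48 h replicate 2 (1.57, 1 of 151). GPI was called at 24 h with no filter (1.73, 1 of 104 genes called higher) and with DESeq2 without that library (1.70, 1 of 210), which made 2 members. Over both time points it was called with limma-voom (1.28, 1 of 279 genes) and with DESeq2 without that library (1.33, 1 of 330), again 2 members. Its 48 h direction reversed in the last 2 settings (0.67 and 0.96). With no filter 1 member, GPI, passed in DMSO over time and in the difference between time points.

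The change of SLC2A1 in Molidustat from 24 h to 48 h, close to 0, reversed with total gene counts (0.022), limma-voom (0.067) and DESeq2 without that library (0.0070), and that of HK2 with the replicate block (0.10). Leaving out 1 library gave -0.26 to 0.21 and -0.53 to 0.16 for these. It gave 0 to 2 members called at 24 h, 1 to 2 over both time points, 1.81 to 2.21 for SLC2A1 at 24 h, 0.16 to 0.83 for HK2 at 48 h, 0.13 to 0.55 (SLC2A1) and 0.09 to 0.90 (HK2) for the change over time in DMSO, -0.58 to -0.11 (SLC2A1) and -0.99 to -0.17 (HK2) for the difference between time points, and for GPI 1.34 to 1.94 at 24 h, -1.28 to 0.91 at 48 h and 0.21 to 1.32 over both. The exact permutation differences ran from 0.60 to 1.05 for HK2 and from 0.56 to 1.37 for GPI.

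Later glycolytic genes called at 24 h numbered 11 with DESeq2 without that library, 10 with DESeq2, 9 with limma-voom, 9 with no filter and 8 with each time point alone, and 2 to 11 when leaving out 1 library. At 48 h they numbered 9, 11, 9, 7 and 0 in the same settings, 2 with RLE factors, 2 with total gene counts and 0 to 5 when leaving out 1 library. All genes called higher ranged from 15 to 210 at 24 h, 7 to 244 at 48 h and 77 to 330 over both, and genes called lower from 0 to 29, 0 to 610 and 1 to 191. Same-numbered libraries did not deviate together (correlations -0.090 to 0.139), so numbers were not taken as pairs. With the replicate block the members called were 1 at 24 h, 0 at 48 h and 1 over both, and PGM1 lost its 48 h call (adjusted p = 0.0755), as it did with each time point fitted alone (adjusted p = 0.104). The causes of these changes were not tested. At 18 to 302 counts per library for HK2, and 0 to 30 for the 4 members left out by the filter, depth limits what can be seen.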
